A study of Cavia porcellus with 30 samples.

Results

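The step from 30 to 40 µM mercuric chloride was examined in guinea pig renal proximal tubular epithelial cells after 12 h of exposure. All 5 RNA-seq libraries that the labels assign to the high dose (40 µM) at 12 h were compared with all 5 assigned to the low dose (30 µM) at 12 h, which together are 10 of the 30 libraries of the series. The 5 vehicle libraries of the same time point set the zero level, and the 24 h libraries of the same 2 doses, 5 at each, were used as a second set of measurements. The cells came from Hartley guinea pigs 6 to 8 weeks old and were isolated as proximal tubules, grown to a monolayer and replated, with a last culture step of 48 h in the vehicle medium before the exposure. Vehicle cells received the culture medium, Hepatocyte Maintenance Medium, without mercury. Both doses came from a viability screen in these cells. The labels do not say whether the 5 libraries of a group came from separate animals or separate cultures, so the p-values measure the spread between these libraries, which may be technical.

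The proximal tubule is the first segment of the nephron after the glomerulus, and its epithelium reabsorbs most of the filtered water, salt, glucose and amino acids. Mercuric ions bind tightly to thiol groups of proteins and of glutathione, and they accumulate in this segment through carriers for organic anions and for amino acids. Depletion of glutathione, induction of metal-binding and antioxidant proteins and, at higher exposure, death of the epithelium are well known in cells exposed to mercuric chloride.

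The files carry Ensembl transcript identifiers and do not pair them with gene names, and 0 of the 25824 identifiers matched the gene table at hand. A supplement of the study pairs some of them with Entrez gene numbers, none of which is in that table. The transcripts are therefore described by the shape of their response to dose, by their level and by their length, and markers of the proximal tubule or of other kidney cells could not be checked. The 15 libraries at 12 h held 22209989 to 34237468 estimated counts. No pair of libraries within a group agreed within sampling noise, since the chi-square statistic of the 2 sets of counts per degree of freedom was at least 6.99 in every pair. The cells were sampled in bulk, so fewer cells of a kind and less RNA per cell cannot be told apart, and all levels are shares of the library.

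At 12 h the transcriptome lay farther from vehicle at 40 than at 30 µM. The distance of a library was the mean absolute log2 difference from the vehicle mean over 14156 transcripts with a mean of at least 50 counts, with the mean taken without the library itself for vehicle libraries. The low-dose libraries lay at 0.269, 0.264, 0.246, 0.253 and 0.331. The high-dose libraries lay at 0.359, 0.419, 0.371, 0.452 and 0.384. All 5 high-dose libraries were thus farther from vehicle than all 5 low-dose libraries, with low-dose replicate 5 nearest to the high-dose range. Vehicle libraries themselves lay at 0.148 to 0.196. The mean distance was 0.397 ± 0.038 (SD, n = 5) at 40 µM and 0.273 ± 0.0337 at 30 µM, a difference of 0.124 (exact 2-sided permutation test, p = 0.00794, the smallest that 5 against 5 libraries allow, and 0.0119 adjusted over 3 such tests). Since vehicle libraries themselves lay at a mean distance of 0.173, a distance of 0 does not stand for no response, and no ratio of the distances is given.

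More kinds of transcript were detected at the higher dose, and the most abundant ones took a smaller share. The low-dose libraries held at least 1 count of 18939, 19025, 19343, 19204 and 18934 transcripts. The high-dose libraries did so for 19525, 19539, 19453, 19764 and 19167. The groups overlapped, since high-dose replicate 5 lay below low-dose replicates 3 and 4, and the means of 19490 ± 215 and 19089 ± 179 (SD, n = 5) differed by 401 (exact permutation test, p = 0.0238, 0.0238 adjusted). With all libraries thinned to the smallest total of the series the difference was 447. Vehicle libraries, unthinned, held at least 1 count of 18764 to 19382 transcripts and overlapped both groups. The 100 most abundant transcripts of each library took 28.92, 28.14, 28.58, 27.98 and 28.95% of the counts at 40 µM. They took 29.4, 29.59, 29.58, 29.52 and 29.22% at 30 µM. These groups did not overlap, and the difference was -0.948 percentage points (exact permutation test, p = 0.00794, 0.0119 adjusted). Vehicle libraries ranged from 28.71 to 30.44% and overlapped both groups.

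**Figure D1:**
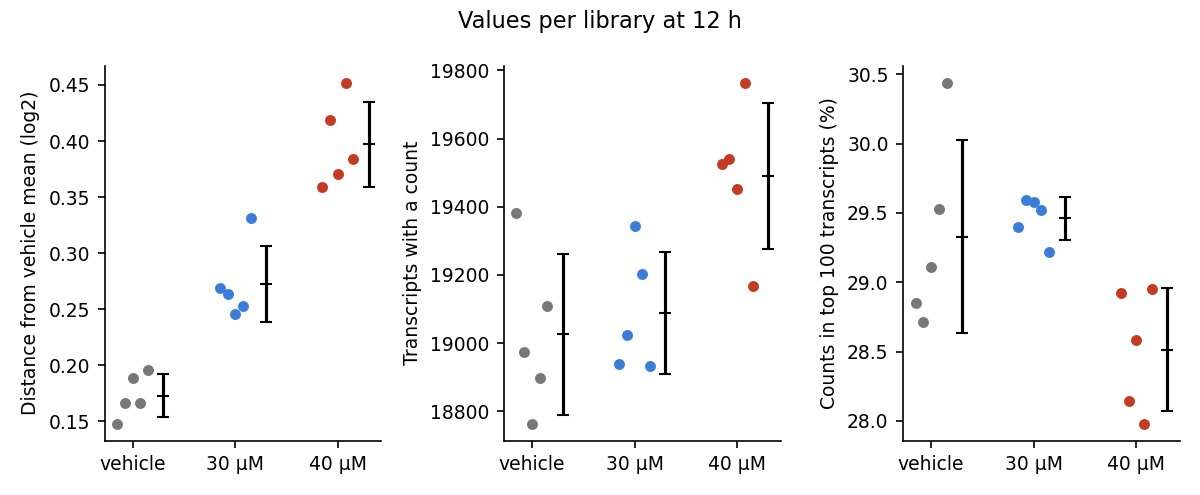
Distance from the vehicle mean, transcripts detected and share of the 100 most abundant transcripts, each point being 1 library at 12 h, with the mean ± SD (n = 5) beside each group of vehicle, 30 and 40 µM. In distance all 5 high-dose libraries sit above all 5 low-dose ones, from 0.359 against at most 0.331, while the numbers of transcripts detected overlap.

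Per transcript, the dose step was widespread and mostly small. Of 16684 transcripts tested between 40 and 30 µM at 12 h, 5587 (33.5%) passed an adjusted p under 0.1 (edgeR quasi-likelihood test with Benjamini-Hochberg adjustment), 2796 of them higher and 2791 lower at 40 µM. The median size of the called steps was 0.31 on the log2 scale, and the median over all tested transcripts was 0.021. Beside this, 4837 of 16698 transcripts (29.0%) were called between 30 µM and vehicle and 8550 of 16767 (51.0%) between 40 µM and vehicle, with median sizes of 0.27 and 0.40. These medians are over different lists, each limited by what the test could call, and the comparisons share libraries, so the sizes are not set against each other. The transcripts next to the threshold had adjusted p-values of 0.099985 inside and 0.10002 outside.

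Large steps were few, and those at low vehicle levels were mostly upward. A change of at least 1.5-fold was found in 1024 called transcripts, 640 higher and 384 lower. At least 2-fold steps numbered 334, or 5.98% of the calls, with 249 higher and 85 lower. The number was 530 without the filter on low counts, 112 by limma on log2(TPM + 1) and 169 with whole estimates alone. Of the 334, 161 rises and 19 falls had a vehicle level under 1 CPM (counts scaled to a common library total), where a transcript entered the test only if it was high enough in at least 1 dose. From 1 CPM up there were 88 rises and 66 falls. At least 4-fold steps numbered 54, of which 44 were higher, and at least 16-fold steps 3, of which 2 were higher. Among called rises the median step was 0.32, the 90th percentile 0.95 and the 99th percentile 2.26 (log2). Among called falls the median was -0.31. By the criterion of no overlap between the 5 and 5 libraries, 1962 transcripts lay below and 1297 above the low dose in all 5 high-dose libraries. These counts have no share over all transcripts beside them. The 33.5% called is by another criterion, so the 2 divisions into rises and falls are not set against each other.

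**Figure D2:**
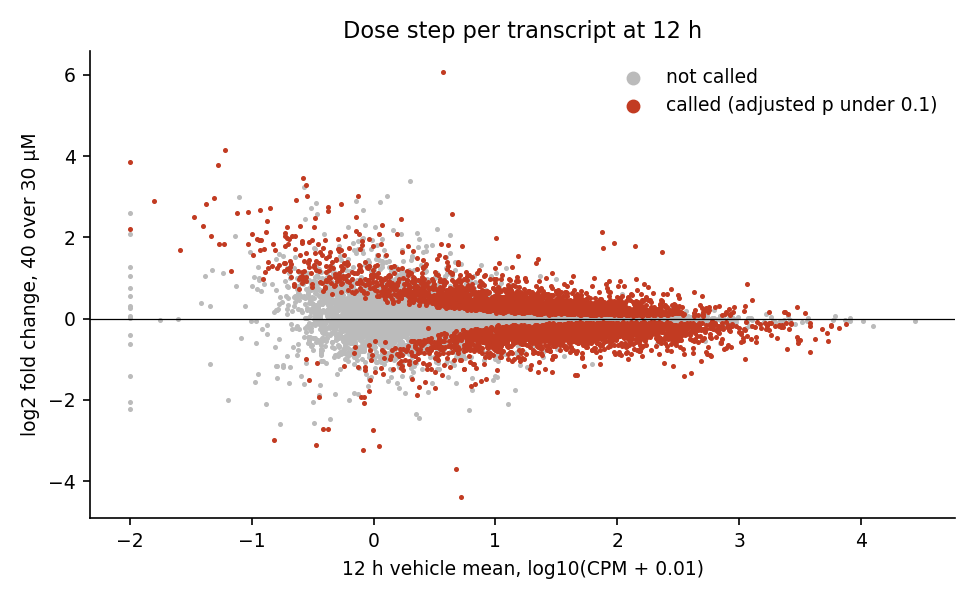
The log2 difference between 40 and 30 µM at 12 h for each tested transcript, against its level, with called transcripts marked. The x axis is log10(CPM + 0.01) of the vehicle mean. Large differences lie mostly among transcripts of low level and above 0, and the 5587 called transcripts divide into 2796 higher and 2791 lower.

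The direction of the step went with the level of a transcript under vehicle. Of 1474 tested transcripts under 1 CPM in vehicle cells, 245 were called, or 16.6%, and 89.8% of these were higher at 40 µM. Between 1 and 10 CPM, 20.5% of 5178 were called and 67.5% of the calls were higher. Between 10 and 100 CPM, 39.8% of 8262 were called and 47% of the calls were higher. At 100 CPM and above, 56.3% of 1770 were called, of which only 31.9% were higher. Calls were thus mostly upward among rare transcripts and mostly downward among abundant ones. The median size of the called steps declined from 1.28 to 0.23 (log2) between the lowest and the highest of these level classes. With few counts only larger steps can be called, so this decline cannot be read as a property of the transcripts. A transcript of low vehicle level entered the test only where enough libraries of the 2 doses held counts, so the lowest class had to hold those that were high in at least 1 dose. Its share of rises cannot be read apart from that rule.

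Length went with direction as well. Among transcripts of up to 1515 bases, 43.2% of the calls were higher at 40 µM. The share was 46% from 1515 to 2609 bases, 52.2% from 2609 to 4200 bases and 57.3% in longer ones. Longer transcripts were called higher in a larger share, while the share called at all moved from 29 to 36.8% and then to 34.9%. The part of RNA quality or of library preparation in this was not tested. Transcripts whose estimated counts were exactly whole in every library (tolerance 0), and so gave no sign of reads shared with another transcript, were called in 40.5% of 6384 cases, and those with fractional estimates in 29.1% of 10300.

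A small number of transcripts was seen at the high dose and near absence elsewhere. More than 3 counts in all 5 high-dose libraries with at most 3 in all 10 low-dose and vehicle libraries were found for 6 transcripts. Their levels were low, with a median of the mean count of 12.8 at 40 µM and a highest count of 33 in any library. Between the 2 doses alone, 10 transcripts were above 3 counts in all 5 high-dose libraries and at most 3 in all 5 low-dose libraries, and 4 were the other way round. An all-or-none response to the higher dose was thus rare at this depth.

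The shape of the response from vehicle through 30 to 40 µM was described by sorting the called steps. A step was high-dose-only where 40 µM was also called against vehicle on the same side and 30 µM was not called. It was graded where all 3 comparisons were called in 1 direction, receding where 30 µM was called against vehicle and the step ran the opposite way, and a step alone where neither dose was called against vehicle. These classes use the same libraries as the step, so the values at 12 h describe the classes and test nothing. Of the 5587 called steps, 5502 had been tested in all 3 comparisons. The remaining 85, of which 79 were higher at 40 µM, lacked the counts for 1 of the others.

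The high-dose-only class was the largest of the 4, with 2578 transcripts, or 46.9% of those classified, 1260 higher and 1318 lower. The graded class held 1973 (35.9%), 946 higher and 1027 lower. The receding class held 473 (8.6%) and the step-alone class 478 (8.69%). The split between high-dose-only and graded rests on a threshold at 30 µM, where the lowest adjusted p of a high-dose-only transcript was 0.10013 and the highest of a graded one 0.099664. In 1760 of the 2578 high-dose-only transcripts (68.3%) the uncalled estimate at 30 µM lay on the same side as at 40 µM, and in 2332 (90.5%) its 95% interval lay within 1.5-fold of vehicle.

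High-dose-only rises had a median of 0.35 at 40 µM and 0.05 at 30 µM against vehicle, and falls of -0.34 and -0.04 (log2). At least 2-fold differences from vehicle at 40 µM were found for 166 transcripts of the class, 123 of them higher. The rises had a median vehicle level of 16.8 CPM and a median length of 3162 bases. The falls had 43.8 CPM and 2353 bases. So the high-dose-only rises were the rarer and longer transcripts, as over all calls.

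Each library showed the class as a whole. The median log2 difference from the vehicle mean over the 1260 rises was 0.302, 0.36, 0.32, 0.417 and 0.287 in the high-dose libraries. It was 0.064, 0.066, 0.056, 0.059 and 0.006 in the low-dose libraries. High-dose replicate 4 was farthest from vehicle, replicate 5 was nearest, and low-dose replicate 5 lay below the other low-dose libraries. Together the rises took 4.67 to 4.83% of the counts in low-dose libraries and 5.56 to 6.28% in high-dose libraries, against 4.76 to 4.84% in vehicle. The falls took 13.6 to 14.0% at 30 µM and 11.1 to 12.3% at 40 µM, against 13.8 to 14.6% in vehicle.

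Graded rises had medians of 0.29 at 30 µM and 0.58 at 40 µM, and graded falls of -0.26 and -0.67 (log2). The difference at 30 µM was a median fraction of 0.52 of that at 40 µM for rises and 0.41 for falls. The median ratio of the difference at 40 µM to that at 30 µM was 2.16. The class requires a called step from 30 to 40 µM, which favours large ratios, and 1086 of the 1973 (55.0%) were called in the test of the straight line over dose described later. Graded rises grew from 7.71 to 7.89% of the counts in vehicle to 10.1 to 10.4% at 30 µM and 12.4 to 14.5% at 40 µM. Graded falls shrank from 16.5 to 16.9% to 13.5 to 14.0% and 10.2 to 11.7%.

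Receding transcripts moved at 30 µM and lay back near or past vehicle at 40 µM. Of the 473, 303 were higher than vehicle at 30 µM, with medians of 0.24 there and -0.04 at 40 µM (log2). The other 170 were lower at 30 µM, with medians of -0.28 and -0.01. At 40 µM, 317 of the 473 were not called against vehicle, 79 were called on the same side as at 30 µM and 77 on the opposite side. Of these 77, 60 were above vehicle at 30 µM and below it at 40 µM.

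**Figure D3:**
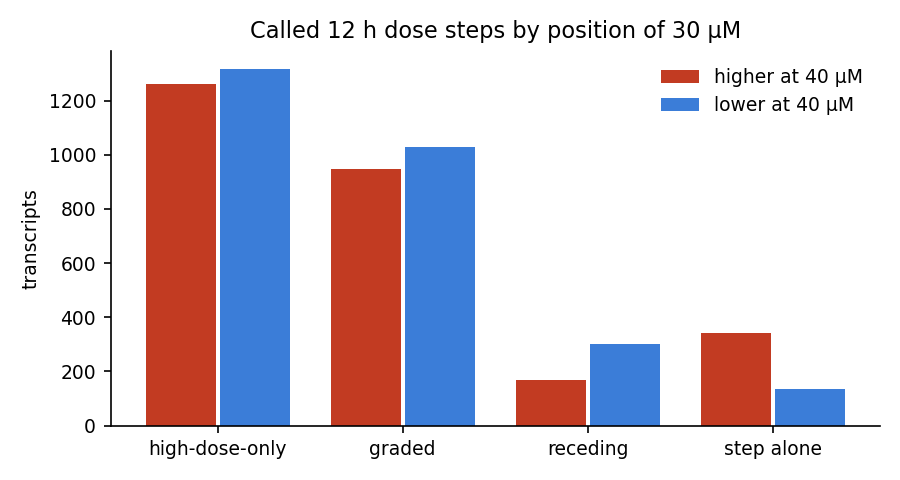
Numbers of called steps in each response class at 12 h, rises and falls from 30 to 40 µM apart. The high-dose-only class holds 2578 transcripts, the graded class 1973, the step-alone class 478 and the receding class 473.

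**Figure D4:**
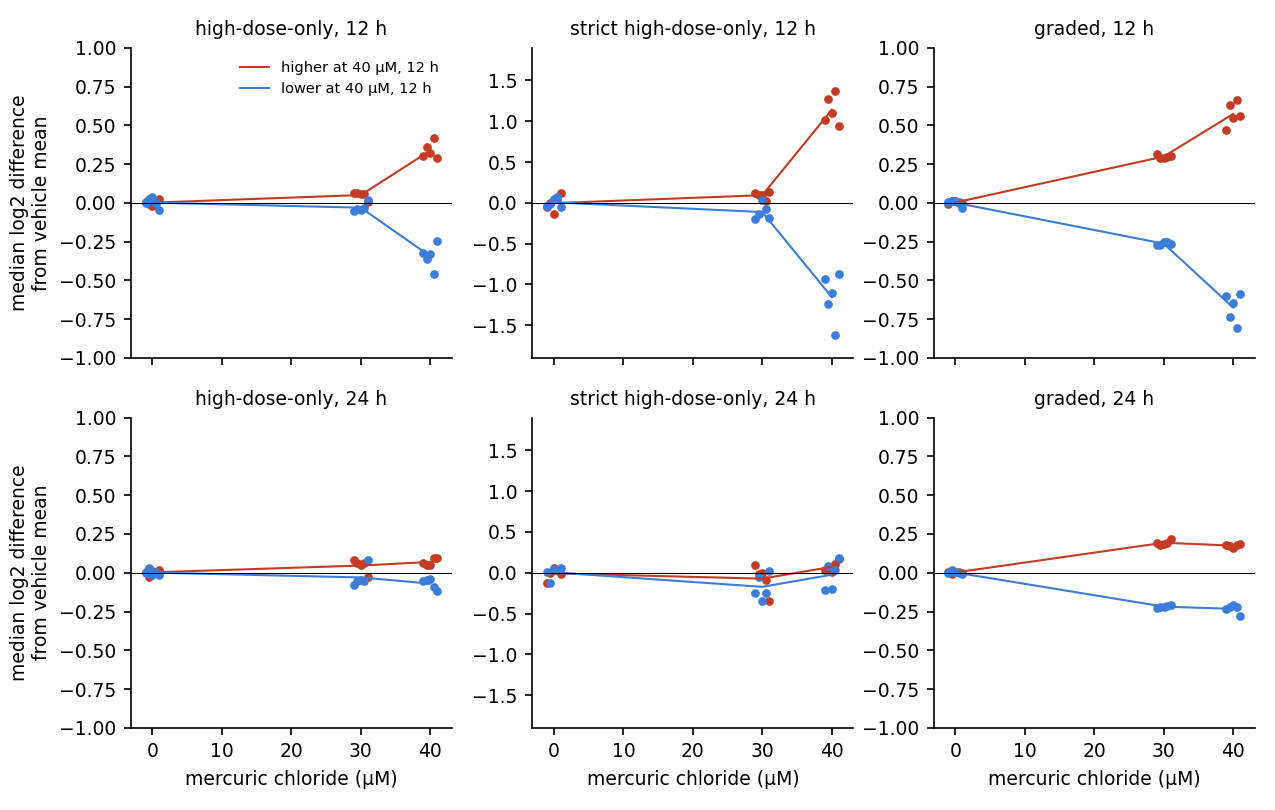
Median log2 difference from the vehicle mean over the transcripts of a class against mercuric chloride in µM, each point being 1 library and each line joining group means, at 12 h (upper panels) and 24 h (lower panels), for the high-dose-only class, its strict members and the graded class. At 12 h the high-dose-only class stays near 0 at 30 µM and averages 0.34 and -0.34 at 40 µM, while graded rises and falls are already at 0.3 and -0.26 at 30 µM, and at 24 h the lines of both are nearly level between the doses.

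Steepness was also tested for every transcript that passed the filter, whatever its class, in the same libraries as the classes. The test took the departure of the 40 µM level from a straight line in log2 through vehicle and 30 µM (high dose minus 4/3 of the low dose plus 1/3 of vehicle, 15 libraries). Of 17239 transcripts, 4054 (23.5%) departed from the line at an adjusted p under 0.1 (edgeR), with a median absolute departure of 0.32 (log2). They lay above the line in 1791 cases and below it in 2263. The 3986 that were tested in all comparisons were sorted by the call at 30 µM, which also defines the classes, so the 3 shapes largely repeat them. Of the 3986, 2147 (53.9%) were not called at 30 µM. A further 1072 (26.9%) were called at 30 µM and moved on in the same direction more steeply than the line. The last 767 (19.2%) were called at 30 µM and levelled off or bent back, and in 472 of these the step was called in the opposite direction. Departures from the line were thus found both where 30 µM was not called and where it was. Levelling off or bending back was the least frequent of the 3 shapes.

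The spread between the 5 libraries was also larger at the high dose. This is a description, since all transcripts share the same libraries and the difference was not tested. Over 14100 transcripts with a mean of at least 50 counts, the median SD of log2 CPM between the 5 libraries was 0.137 at 40 µM, 0.112 at 30 µM and 0.106 in vehicle. The SD was larger at 40 than at 30 µM in 62.7% of these transcripts.

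A strict group was taken from the high-dose-only class to name single transcripts. It required at least a 2-fold difference from vehicle at 40 µM and a 95% interval at 30 µM within 1.5-fold of vehicle. It held 25 transcripts, 18 higher and 7 lower, which is 0.454% of the classified steps. Their median step was 1.08 for rises and -1.01 for falls (log2). In 21 of the 25 all 5 high-dose libraries lay beyond all 10 low-dose and vehicle libraries. The choice of the group from the same libraries favours such separation, and the count has no share over all transcripts beside it, so it is a description. The median rise over the 18 was 1.014, 1.267, 1.096, 1.372 and 0.947 in the high-dose libraries and 0.024 to 0.134 in the low-dose ones. The median width of the interval at 30 µM was 0.64, so smaller effects at 30 µM could not be seen in this group.

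Among the 20 strict transcripts with a mean of at least 50 counts and a high-dose group apart from both others, 15 rises and 5 falls, ENSCPOT00000014118.3 had the largest rise from 30 to 40 µM. It is 8730 bases long and its estimated counts are whole, with no sign of shared reads. It stood at 3.21, 3.12, 3.5, 4.15 and 3.14 CPM in vehicle, at 3.15, 3.19, 4.06, 3.16 and 3.18 at 30 µM and at 8.15, 8.89, 10.4, 11.5 and 9.44 at 40 µM. The lowest high-dose library lay above the highest of the others by a wide margin, and vehicle and 30 µM overlapped. The step was 1.55 (SE 0.12, adjusted p = 2.48e-05, edgeR), the difference from vehicle was 1.51 at 40 µM (SE 0.13, adjusted p = 3.64e-06) and -0.03 at 30 µM (95% interval -0.32 to 0.27).

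ENSCPOT00000003675.3, with 14391 bases and whole estimates, had the next largest rise of the 15. It stood at 2.23, 2.78, 2.21, 2.74 and 3.22 CPM in vehicle, at 2.7, 2.63, 2.56, 2.21 and 2.05 at 30 µM and at 6.78, 5.67, 5.22, 7.88 and 3.57 at 40 µM. The high-dose libraries did not overlap the others, but replicate 5 came close to vehicle replicate 5. Its step was 1.29 (SE 0.2, adjusted p = 0.00125, edgeR), with 1.15 at 40 µM and -0.12 at 30 µM against vehicle (95% interval -0.47 to 0.24).

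ENSCPOT00000005648.3 had the largest of the 5 falls. It is 3208 bases long with fractional estimates, so part of its level may belong to a similar transcript. It stood at 5.53, 4.79, 5.93, 5.73 and 5.23 CPM in vehicle, at 3.79, 4.93, 4.15, 5.5 and 4.5 at 30 µM and at 2.38, 1.18, 2.47, 0.898 and 2.63 at 40 µM. All high-dose libraries lay below all others, and 3 of the low-dose libraries lay below all vehicle libraries. The step was -1.23 (SE 0.29, adjusted p = 0.01, edgeR), the difference at 40 µM was -1.5 and that at 30 µM -0.25 (95% interval -0.51 to 0.02, adjusted p = 0.177). At 30 µM it was called on both TPM scales, with adjusted p-values of 0.0617 and 0.0687 (limma), and on the count scale without low-dose replicate 4 (-0.32, adjusted p = 0.0858, edgeR), so its place among transcripts that respond at the high dose only depends on the scale and on 1 library.

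ENSCPOT00000038791.1, with 1401 bases and fractional estimates, had the next largest of the 5 falls. It stood at 4.04, 3.9, 4.34, 5.2 and 3.41 CPM in vehicle, at 3.29, 5.41, 4.7, 4.31 and 4.91 at 30 µM and at 2.69, 1.61, 1.81, 1.43 and 2.22 at 40 µM. Low-dose and vehicle libraries overlapped widely, and all high-dose libraries lay below both. Its step was -1.19 (SE 0.21, adjusted p = 0.00212, edgeR), with -1.09 at 40 µM and 0.12 at 30 µM against vehicle (95% interval -0.23 to 0.46).

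**Figure D5:**
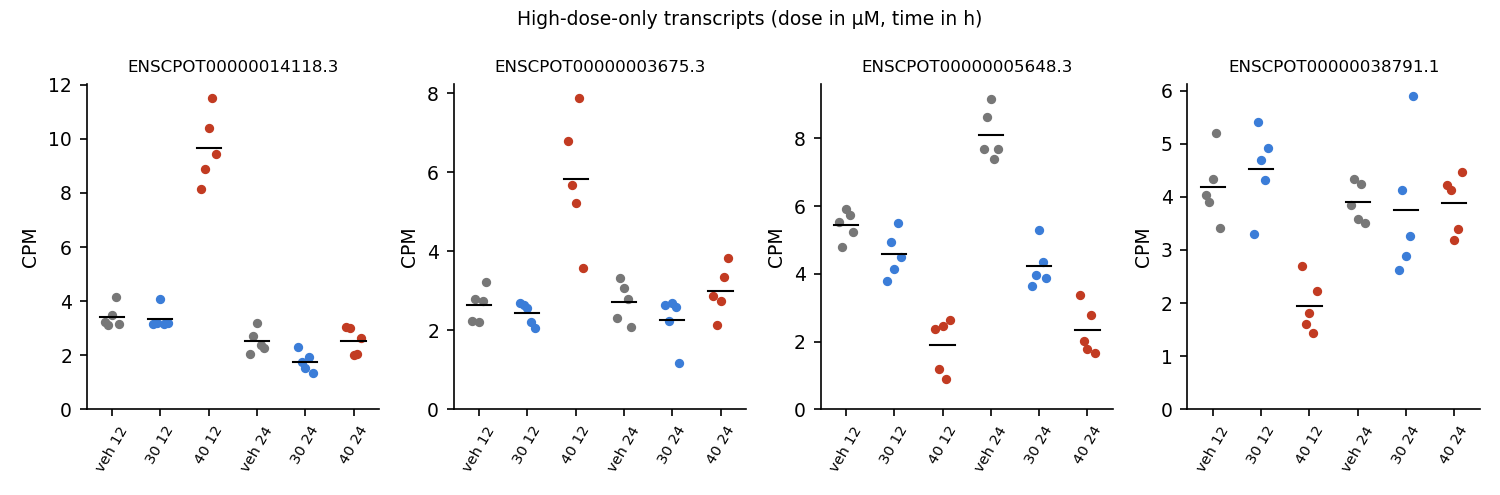
CPM of the 4 transcripts named, each point being 1 library and each bar the mean of 5 libraries of vehicle, 30 and 40 µM at 12 and 24 h. At 12 h the high-dose points stand apart from both other groups in all 4, as the rule for naming required, with means of 9.69 against 3.35 at 30 µM for ENSCPOT00000014118.3, and at 24 h only ENSCPOT00000005648.3 keeps a high-dose group below the low-dose group.

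Far fewer steps were called at 24 h. Between 40 and 30 µM at 24 h, 597 of 16664 transcripts (3.58%) were called, 284 higher and 313 lower. This count moved with single libraries and with the fit. It was 1053 without low-dose replicate 5 of 24 h, 263 to 558 when any other library was left out, 1094 with all 30 libraries in 1 fit and 1147 by DESeq2. The difference between the step at 12 h and the step at 24 h was tested in 1 fit of 20 libraries and was called for 3215 of 17508 transcripts (18.4%, edgeR), or 4068 without that library. Of the 3170 of these that were tested at both times, 2731 (86.2%) had the smaller step at 24 h and 2237 (70.6%) had a step of opposite sign. Their median size was 0.31 at 12 h and 0.09 at 24 h (log2). These transcripts were chosen for a difference between the times, so their sizes and signs are a description. Over all 16318 transcripts tested at both times, 54.6% had the same direction of step at both, and of those called at 12 h 58.3% did. Without low-dose replicate 5 of 24 h these shares were 49.8 and 51.6%.

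The response classes were set from the 12 h libraries alone. High-dose-only transcripts were called at 24 h in about the share of all transcripts, and in a smaller share than all transcripts called at 12 h. Of 2573 tested, 101 (3.93%) were called between the doses at 24 h, 88 in the direction of 12 h and 13 against it. The share was 3.58% over all transcripts. It was 7.13% over the 5513 called at 12 h and tested at 24 h, with 263 in the direction of 12 h and 130 against it. The direction at 24 h was that of 12 h in 1635 (63.5%), against 58.3% of all transcripts called at 12 h and 54.6% of all tested at both times. The median step of the rises was 0.32 at 12 h and 0.04 at 24 h, and that of the falls -0.28 and -0.04. The class was chosen by its steps at 12 h, which favours larger medians there. In the libraries at 24 h, the median over the 1260 rises was 0.05 ± 0.04 (SD, n = 5) above vehicle at 30 µM and 0.07 ± 0.02 at 40 µM, and over the falls -0.03 ± 0.07 and -0.07 ± 0.03. Low-dose replicate 5 of 24 h stood at -0.027 over the rises, against 0.048 to 0.081 in the other 4, and at 0.084 over the falls, against -0.081 to -0.045. Without it the difference between the doses went from 0.023 to 0.005 for rises and from -0.04 to -0.011 for falls, the share with the direction of 12 h was 53.5%, and 183 transcripts of the class (7.11%) were called, against 6.23% of all transcripts. The share of this class with the same direction at both times thus moved with this library. Leaving out any other library except high-dose replicate 1 of 24 h gave 34 to 64 called (1.32 to 2.49%), against 1.56 to 2.47% of all transcripts.

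Of the 25 strict transcripts, 18 had the direction of 12 h at 24 h (72%, beside the 58.3% of all called at 12 h and 54.6% of all tested). Of the 25, 3 were called, all in that direction (12%, beside 3.58% of all tested and 7.13% of all called at 12 h). The number called was 1 to 4 when single libraries of 24 h were left out, while 1.56 to 6.23% of all transcripts were called. It was 4 without low-dose replicate 5. It was also 4 without high-dose replicate 1, where 1 of the 4 ran opposite to 12 h. It was 1 without low-dose replicate 1, 2, 3 or 4 or high-dose replicate 4 or 5.

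Graded and receding transcripts were called at 24 h in a larger share than the 3.58% of all transcripts and the 7.13% of those called at 12 h. Of 1965 graded transcripts, 215 (10.9%) were called between the doses at 24 h, but 108 of these ran opposite to 12 h and 107 the same way, and 47.3% had the direction of 12 h. The number called was 104 to 134 (5.29 to 6.81%) without low-dose replicate 1, 2, 3 or 4 or high-dose replicate 2 or 3 of 24 h, against 1.56 to 2.15% of all transcripts. It was 321 (16.3%) without low-dose replicate 5, against 6.23% of all transcripts. Graded rises stood at 0.19 ± 0.01 at 30 µM and 0.17 ± 0.01 at 40 µM against vehicle at 24 h, and graded falls at -0.22 ± 0.01 and -0.23 ± 0.03 (SD, n = 5). Graded transcripts thus still lay away from vehicle at 24 h, by about the same amount at both doses. Of 472 receding transcripts, 68 (14.4%) were called at 24 h, 59 of them in the direction of 12 h, and 349 (73.9%) had the direction of 12 h. Low-dose replicate 5 of 24 h stood apart here too, at -0.322 over the receding transcripts that were lower at 30 µM (-0.14 to -0.106 in the other 4) and at 0.279 over those that were higher (0.14 to 0.177). Without it 89 (18.8%) were called, against 6.23% of all transcripts, and 66.8% had the direction of 12 h, beside 51.6% of all transcripts called at 12 h. The difference between the doses then went from 0.083 to 0.043 and from -0.075 to -0.052. Without low-dose replicate 1, 3 or 4 or high-dose replicate 2 of 24 h, 34 to 43 (7.19 to 9.09%) were called, against 1.56 to 2.05% of all transcripts.

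The 4 transcripts named differed at 24 h. They were chosen for large steps at 12 h, which favours a smaller step at 24 h. The p-values for their differences between the times do not allow for this choice, so these differences are a description. ENSCPOT00000014118.3 stood at 1.76 ± 0.366 CPM at 30 µM and 2.54 ± 0.497 at 40 µM (SD, n = 5), a step of 0.53 that was not called (adjusted p = 0.272, edgeR) except with all 30 libraries in 1 fit (0.52, adjusted p = 0.0491, edgeR), and its step was larger at 12 h by 1.03 (SE 0.22, adjusted p = 0.0037). For ENSCPOT00000003675.3 the means were 2.27 ± 0.635 and 2.98 ± 0.637, and the difference between the times of 0.89 (SE 0.32, adjusted p = 0.0715, edgeR) was no longer called when single libraries were left out, in 10 of the 20 cases, nor without the filter (adjusted p = 0.103) or on log2(TPM + 0.1) (adjusted p = 0.178, limma). ENSCPOT00000005648.3 stood at 8.11 ± 0.754 CPM in vehicle, 4.23 ± 0.652 at 30 µM and 2.33 ± 0.735 at 40 µM, and its step of -0.85 at 24 h was called (SE 0.22, adjusted p = 0.0818, edgeR) but not when any of 8 of the 10 libraries was left out. Its difference between the times of -0.38 was not called (adjusted p = 0.583, edgeR). ENSCPOT00000038791.1 stood at 3.76 ± 1.32 and 3.88 ± 0.56 CPM, a step of 0.06 at 24 h, and its fall at 12 h differed from that by -1.24 (SE 0.31, adjusted p = 0.00992, edgeR).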

How the data were processed

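The authors made 1 table per library by pseudo-alignment with Kallisto 0.42.4 (version from the submitters' processing notes) against the Ensembl guinea pig transcriptome, whose release is not given in the sources used here. Libraries were poly-A-enriched and stranded. Each deposited table holds an estimated count, not normalised, and a TPM value for 25824 transcripts. The authors did not pool replicates, and their own test (Sleuth) was not used here.

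Libraries were grouped by the agent and time in the labels. Replicate numbers follow sample order and pair nothing. Estimated counts were rounded, filtered with filterByExpr, scaled by TMM and fitted in edgeR 4.0.16 (R 4.3.3), whose quasi-likelihood test gave 1 p-value for each transcript. Each fit held only the libraries it compares (10 for 2 groups, 15 for the straight line, 20 for both times). A transcript was called where its p, adjusted by Benjamini-Hochberg over all transcripts of the fit, was under 0.1, as in the study's methods. SEs were derived by dividing the log2 difference by the root of the F statistic. CPM uses TMM factors, and library medians use log2(CPM + 0.1). Values per library were compared with exact 2-sided permutation tests over 252 splits. Fits were tested on simulated data.

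Transcripts were named among strict ones with a mean of at least 50 counts over the 10 libraries of the 2 doses and a high-dose group that overlaps neither other group. Of 20 that qualified, the 2 largest rises and 2 largest falls are given. The classes, lists and rules were chosen with earlier results of these data known. Gene lists and cell markers had been planned and were not run for want of gene names.

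Alternatives were an adjusted p under 0.05, RLE size factors, no filter, all 30 libraries in 1 fit, DESeq2 1.42.0, limma 3.58.1 on log2(TPM + 1) and log2(TPM + 0.1), whole estimates alone, thinning to the smallest total, and leaving out each library. Counting error limits rare transcripts, at 22209989 to 34237468 counts per library at 12 h.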

Additional observations from a re-analysis of the deposited data

Results flagged for a closer look

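In 81 sets of 5 libraries, 11 had a library far from the other 4, where chance gives 4.0 (about 1 in 20). The sets of class medians share libraries and are not independent. Low-dose replicate 5 at 12 h stood apart in 4 of them. Its distance from the vehicle mean was 0.331, against 0.246 to 0.269 in the other low-dose libraries. Its median over high-dose-only rises was 0.006, against 0.056 to 0.066, and its median over high-dose-only falls was 0.019, against -0.053 to -0.036. Over receding transcripts that were lower at 30 µM its median was -0.367, against -0.262 to -0.242. Low-dose replicate 5 at 24 h stood apart in 3 sets, with medians of 0.084 over high-dose-only falls (-0.081 to -0.045 in the others), -0.322 over receding transcripts lower at 30 µM (-0.14 to -0.106) and 0.279 over those higher at 30 µM (0.14 to 0.177). Vehicle replicate 5 at 12 h had a median of -0.036 over graded falls, against 0.003 to 0.014 in the other vehicle libraries, and of -0.046 over receding transcripts higher at 30 µM, against 0.004 to 0.024. Vehicle replicate 2 at 24 h had a median of -0.122 over strict falls, against 0.011 to 0.055. ENSCPOT00000014118.3 stood at 4.06 CPM in low-dose replicate 3 at 12 h, against 3.15 to 3.19 in the other low-dose libraries.

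The dose step differed between 12 and 24 h for 3215 transcripts by an interaction test (edgeR). Among the transcripts named, the step at 12 h minus that at 24 h was 1.03 for ENSCPOT00000014118.3, 0.89 for ENSCPOT00000003675.3 and -1.24 for ENSCPOT00000038791.1. These transcripts were chosen for large steps at 12 h, which favours such differences. The 0.89 of ENSCPOT00000003675.3 had an adjusted p of 0.0715 (edgeR) and was not called at an adjusted p under 0.05, without the filter (adjusted p = 0.103), on log2(TPM + 0.1) (adjusted p = 0.178, limma) or without any of 10 of the 20 libraries.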

How the results depend on the processing

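No per-library difference reversed under any alternative tried. Counts have no direction to reverse, so only changes in their size were examined. The count of called steps at 12 h (5587) stayed within 1.5 times except with whole estimates alone (3043), where fewer transcripts are tested. The same setting gave 2672 calls for 30 µM and 4120 for 40 µM against vehicle, 2333 departures from the line, 1854 interaction calls, 169 steps of at least 2-fold, and 1275 high-dose-only, 1183 graded, 315 receding and 13 strict transcripts. At an adjusted p under 0.05 the step at 24 h was called for 313 transcripts and the receding class held 262. Steps at 24 h numbered 1094 with all 30 libraries in 1 fit and 1147 by DESeq2. Steps of at least 2-fold at 12 h numbered 530 without the filter and 112 on log2(TPM + 1), where the strict class held 13. The 12 h calls, evenly divided as reported, did not stay so. The share higher was 47.7% at an adjusted p under 0.05, 48.0% with RLE factors and 48.3% by DESeq2. It was 44.6% without the filter, 44.5% with all libraries, 53.4% on log2(TPM + 1) and 53.2% on log2(TPM + 0.1). Rises were thus the larger part on both TPM scales and falls in the other settings listed here, so the direction with more calls depended on the processing. Leaving out each library in turn gave 4545 to 6005 calls at 12 h, a share higher of 45.5 to 49.1%, 2001 to 2870 high-dose-only transcripts and 263 to 1053 calls at 24 h. Of the classes, 34 to 183 high-dose-only (1.32 to 7.11%), 104 to 321 graded (5.29 to 16.3%), 34 to 89 receding (7.19 to 18.8%) and 1 to 4 strict transcripts (4 to 16%) were then called at 24 h. The share over all transcripts was 1.56 to 6.23%. This check was chosen after seeing the data. The causes were not tested. No paired analysis was possible because the labels give no shared replicate numbers. Depth limits the rarest transcripts, and fractional estimates are uncertain between similar transcripts.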
